A study of Mus musculus with 10 samples.

Results

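Atp1b2, Slc12a2 and Esrrb are 3 genes used to mark the marginal cells of the stria vascularis, the epithelium of the cochlea that faces the endolymph. They were followed through all 6 probe sets that carry their symbols in the authors' deposited table of significant genes, which holds 7806 probe sets and names 5478 genes. Atp1b2 had 2 of these probe sets, Slc12a2 had 3 and Esrrb had 1. RNA came from the cochlea of male CBA mice, an inbred strain used in hearing research, all 6 months old. The 5 GeO2 samples came from mice given germanium dioxide, an oxide of germanium with known toxicity to kidney, muscle and nerve, at 0.15% of the diet for 4 months. The 5 control samples came from mice on normal chow, and each sample was read on 1 Affymetrix array.

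The labels leave unsaid if 1 animal or several gave each sample. The series notes count 5 samples a group yet say there were no replicates. The p-values therefore reflect sample-to-sample spread of unknown, possibly technical, origin. The number of arrays limits the precision. Signals are the authors' intensities, already scaled so that the mean with 2% trimmed at each end was 1496 on each array, and array medians ran from 447 to 508. A change here is GeO2 minus control on the scale of log2(signal + 16), which understates changes of dim probe sets. Calls were made in limma over the 27022 probe sets left after the dimmest 40% were removed, at 0.05 after Benjamini-Hochberg adjustment.

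Marginal cells secrete potassium into the endolymph. The sodium pump and the sodium-potassium-2-chloride cotransporter in their basolateral membrane load potassium into the cell, and a channel made by Kcnq1 and Kcne1 releases it on the apical side. Atp1b2 encodes a beta subunit of the pump. Slc12a2 encodes the cotransporter, also known as Nkcc1, which spiral ligament fibrocytes express as well. Esrrb encodes oestrogen-related receptor beta, an orphan nuclear receptor, and mice that lack it in the inner ear fail to form normal marginal cells and endolymph.

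In GeO2, Atp1b2 fell to 51.0% of its control signal at its brighter probe set, and Slc12a2 fell at all 3 of its probe sets, to between 61.0% and 69.0% of control. Esrrb fell to 63.1% of control, just inside the threshold. In all, 5 of the 6 probe sets were called lower, where 7.81% of all probe sets tested were called lower and 8.5% higher. These probe sets carry names because the authors' table had already selected them on the same arrays and contrast, so the count is a description and supports no direction. The median change over all probe sets tested was −0.02. These are values of whole cochlear RNA, in which fewer cells of a type and less RNA per cell cannot be told apart. The count of 5 became 1 without GeO2 replicate 5 and 2 when GeO2 replicate 2, GeO2 replicate 3, control replicate 1 or control replicate 2 was left out. It was 3 without control replicate 4 or control replicate 5.

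**Figure D1:**
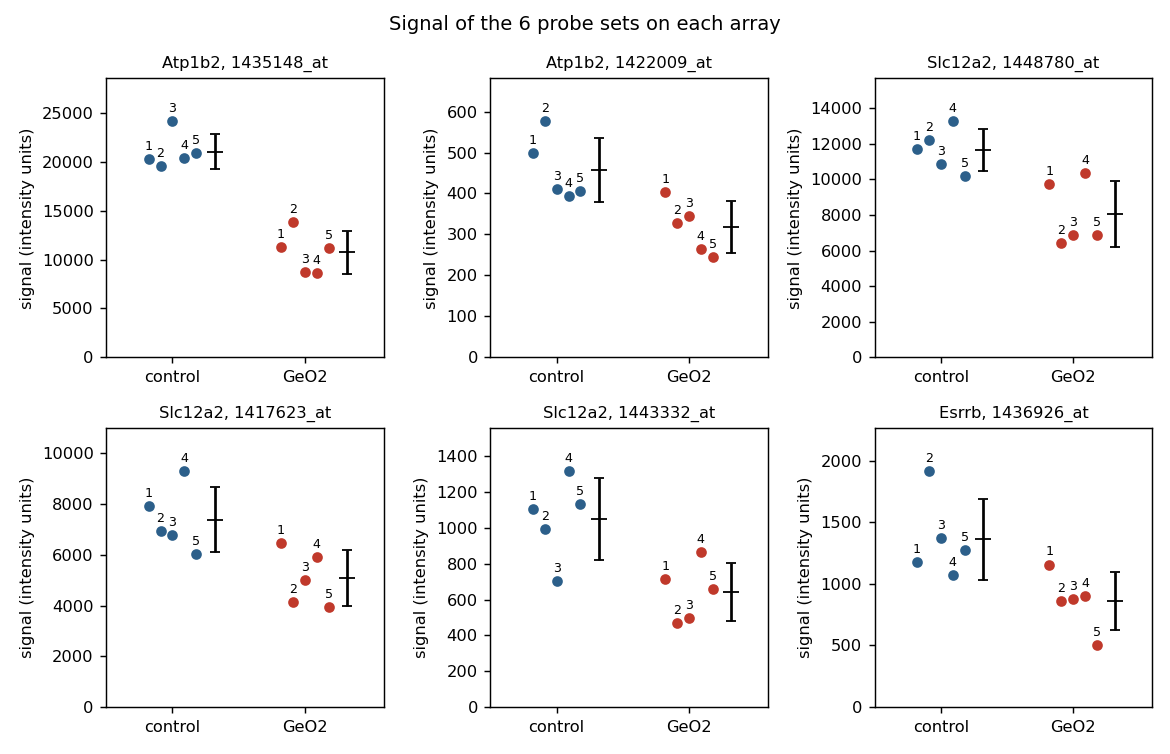
Signal in intensity units (linear axis from 0) of each of the 6 probe sets in the 5 control arrays (blue) and the 5 GeO2 arrays (red), numbered by replicate, with the mean and SD of each group as a black bar. The groups do not overlap for Atp1b2 at 1435148_at, and overlap by 1 or 2 GeO2 arrays at the other probe sets.

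The brighter Atp1b2 probe set, 1435148_at, read 20309, 19598, 24221, 20376 and 20903 units in control replicates 1 to 5. In GeO2 replicates 1 to 5 it read 11250, 13890, 8771, 8627 and 11174 units. Every GeO2 array lay below every control array, so all 25 pairwise comparisons of the groups ran the same way. Of all probe sets tested, 5.62% were separated in that direction and 6.55% in the other. These shares are not limited to the authors' selected probe sets, from which 1435148_at comes. The control arrays were tight, with a coefficient of variation of 8.61%, against 20.1% in GeO2. The mean fell from 21081 ± 1816 to 10742 ± 2163 units (SD, n = 5), a change of −0.99 (SE 0.13, 95% interval −1.26 to −0.72, adjusted p = 0.000808 in limma). This is 1.99-fold lower on the log scale, and the call held whichever single array was left out, with an adjusted p of at most 0.00356.

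The other Atp1b2 probe set, 1422009_at, was dim. It read 498.8, 577.1, 411.5, 394.8 and 405.1 units in control replicates 1 to 5, and 404.5, 327.3, 345.2, 265.3 and 245.0 units in GeO2 replicates 1 to 5. The groups touched, since GeO2 replicate 1 lay above control replicate 4. The change of −0.51 (SE 0.19, 95% interval −0.92 to −0.11) did not pass (adjusted p = 0.0812 in limma). Across the 10 arrays the log2 values of the 2 probe sets gave a Pearson r of 0.69, and 0.00 once group means were removed. Whether they vary together within a group was not tested. In the authors' deposited table, 1435148_at has a signed fold change of −1.9 and 1422009_at has −1.2; the ratios of mean signals, control over GeO2, were 1.96 and 1.44.

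Slc12a2 was called lower at all 3 of its probe sets. At 1448780_at, its brightest probe set, control replicates 1 to 5 read 11709, 12218, 10858, 13284 and 10199 units. GeO2 replicates 1 to 5 read 9731, 6423, 6863, 10346 and 6852 units. GeO2 replicates 1 and 4 stood near the controls, and replicate 4 exceeded control replicate 5, while GeO2 replicates 2, 3 and 5 lay far below every control. The mean fell from 11654 ± 1197 to 8043 ± 1843 units (SD, n = 5), a change of −0.56 (SE 0.14, 95% interval −0.87 to −0.25, adjusted p = 0.02 in limma), or 1.47-fold lower. Leaving out GeO2 replicate 5 took the adjusted p to 0.0547; no other single array ended the call.

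At the other Slc12a2 probe sets GeO2 replicates 1 and 4 were again the highest of their group. At 1417623_at the controls read 7918, 6953, 6768, 9323 and 6014 units and the GeO2 arrays 6452, 4120, 4991, 5903 and 3942 units, replicates 1 to 5 in each case. GeO2 replicate 1 alone exceeded the lowest control. At 1443332_at the controls read 1105, 991.7, 701.0, 1320 and 1135 units and the GeO2 arrays 714.6, 469.3, 495.4, 864.4 and 658.8 units. There GeO2 replicates 1 and 4 exceeded control replicate 3. Changes were −0.55 (SE 0.16, adjusted p = 0.0322) and −0.71 (SE 0.20, adjusted p = 0.0325), 1.46-fold and 1.63-fold lower. With group means removed, each of these probe sets gave r of 0.87 and 0.71 with the brightest one over 10 arrays, and 0.55 with each other. Both calls depended on single arrays. For 1417623_at, 6 of the 10 omissions ended the call (adjusted p at most 0.0838), and for 1443332_at, 7 did (at most 0.0765).

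Esrrb, at 1436926_at, read 1178, 1921, 1370, 1069 and 1277 units in control replicates 1 to 5 and 1158, 861.3, 874.3, 903.0 and 503.9 units in GeO2 replicates 1 to 5. GeO2 replicates 2, 3 and 4 lay within a narrow band, replicate 5 was lowest, and replicate 1 exceeded control replicate 4, so 24 of 25 pairwise comparisons were lower. The mean fell from 1363 ± 332 to 860.1 ± 233 units (SD, n = 5), a change of −0.67 (SE 0.21, 95% interval −1.13 to −0.21, adjusted p = 0.0483 in limma). This is 1.59-fold lower. Of the 10 omissions of 1 array, 8 ended the call, with the adjusted p reaching 0.113 without control replicate 2. The call held on omitting GeO2 replicate 1 (0.0245) or control replicate 4 (0.0444).

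**Figure D2:**
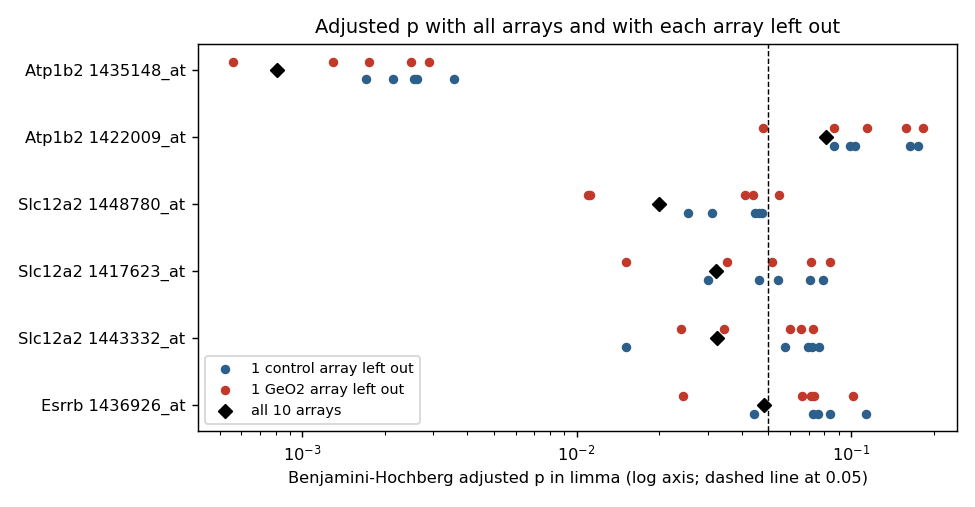
Benjamini-Hochberg adjusted p in limma (log axis) for the 6 probe sets with all 10 arrays (black diamonds) and with 1 control array (blue) or 1 GeO2 array (red) left out; the dashed line is the threshold of 0.05. Atp1b2 at 1435148_at stays between 0.000557 and 0.00356, while Esrrb passes with all arrays at 0.0483 and crosses the threshold for 8 of the 10 arrays.

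No difference in the size of the fall was detected between the 3 genes. The difference in log2 signal between 2 genes on an array was compared between groups for each of the 3 pairs, at the brightest probe set of each gene. Atp1b2 fell by more than Slc12a2 by a difference of −0.43 (95% interval −1.02 to 0.15), with an exact two-sided permutation p of 0.135 and an adjusted p of 0.405 over 3 pairs. For Atp1b2 against Esrrb the difference was −0.32 (95% interval −0.98 to 0.35, exact p = 0.349, adjusted p = 0.524). For Slc12a2 against Esrrb it was 0.11 (95% interval −0.42 to 0.65, exact p = 0.627 before and after adjustment). The smallest p that this design allows is 0.00794. The intervals are wide, so these tests do not show that the genes fell alike.

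Within groups no relation between the genes was detected at the brightest probe set of each. There, Atp1b2 was highest among GeO2 arrays in replicate 2, where Slc12a2 was lowest, and lowest in replicate 4, where Slc12a2 was highest. Slc12a2 at 1443332_at was also lowest in replicate 2 and highest in replicate 4. Atp1b2 at 1422009_at and Slc12a2 at 1417623_at were both highest in replicate 1 and lowest in replicate 5. Over 10 arrays as deviations from group means, Atp1b2 and Slc12a2 gave a Pearson r of −0.46 (exact permutation p = 0.306, adjusted p = 0.635 over 3 pairs) and a Spearman rho of −0.44 (p = 0.313). Dropping the 2 arrays at the largest distance from the median Atp1b2 deviation turned r to 0.15, so the negative value rests on those arrays. Atp1b2 and Esrrb gave r of −0.10 (exact permutation p = 0.837, adjusted p = 0.837), rho of −0.25 (p = 0.552) and, after the same omission of 2 arrays, r of −0.14. Slc12a2 and Esrrb gave r of 0.38 (exact permutation p = 0.423, adjusted p = 0.635) and rho of 0.39 (p = 0.3). For this pair the 2 arrays farthest from the median Slc12a2 deviation were dropped instead, which gave r of 0.11.

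**Figure D3:**
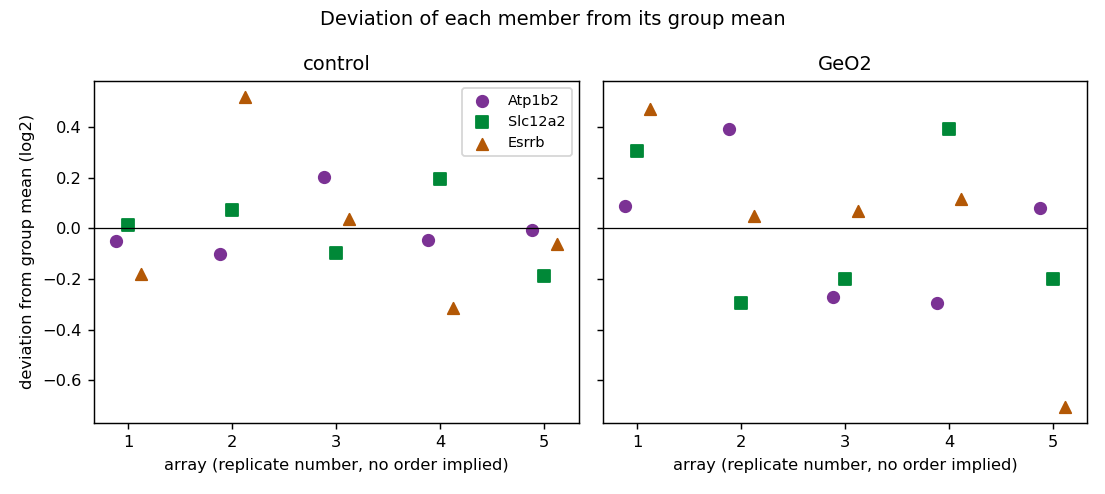
Deviation of Atp1b2 (circles), Slc12a2 (squares) and Esrrb (triangles) from the group mean, in log2 units, on each control array (left) and GeO2 array (right). Each gene is shown at its brightest probe set. In GeO2 replicate 2 Atp1b2 lies 0.39 above its mean and Slc12a2 0.29 below, and in GeO2 replicate 5 Esrrb lies 0.71 below its mean.

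Related genes were counted only where the authors' table names them and a probe set was tested. That table was selected as significant on these arrays, and a listed gene outside it is unnamed here, not without data on the array. Of 19 listed genes for pump subunits, their FXYD modulators and Nkain partners, 7 were named. Of these, 6 fell, none rose and 1 missed the threshold, and the median change was −0.52. Leaving out Atp1b2 itself, 5 of 6 fell. Among named genes with a tested probe set, 29.7% were called lower and the median change was −0.23. Atp1b1, the beta 1 subunit that spiral ligament fibrocytes use, fell from 629.9 ± 55.2 to 382.6 ± 45.5 units (SD, n = 5). Its change was −0.70 (SE 0.15, adjusted p = 0.00757 in limma). It was lower in all 25 pairwise comparisons, as were 5.62% of all probe sets tested, and no omission of 1 array ended its call. The same holds for Fxyd5 (−0.62, SE 0.15). Fxyd6 (−0.50, SE 0.13) and Fxyd1 (−0.52, SE 0.15) lost their calls in 2 and 7 of the 10 omissions. Nkain2, a gene whose product interacts with the pump and which is listed as 6330571D19Rik, changed by 0.51 (SE 0.17, adjusted p = 0.0624).

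The family of Slc12a2 and the kinases that act on it moved in both directions. Of 17 listed genes, 6 were named: falls numbered 3, rises 2, and 1 gene missed the threshold. Leaving out Slc12a2 itself, 2 of 5 fell. The median over the 6 was −0.31, where 29.7% of named genes were called lower and 29.6% higher. Stk39, the kinase SPAK that phosphorylates and activates the cotransporter, rose from 872.2 ± 223 to 1693 ± 339 units (SD, n = 5), a change of 0.96 (SE 0.20, adjusted p = 0.00741). Every GeO2 array exceeded every control array, as for 6.55% of all probe sets tested, and no omission of 1 array ended the call. Wnk1, listed as Prkwnk1 and encoding the kinase that acts upstream of SPAK, fell by 0.56 (SE 0.17, adjusted p = 0.0364) and at its other probe set by 0.50. Slc12a4, a potassium-chloride cotransporter gene, rose by 0.40 (SE 0.11, adjusted p = 0.0263), and Slc12a9 changed by −0.38 (SE 0.11, adjusted p = 0.0357). Of the 10 omissions, 6 ended the call of Wnk1, 7 that of Slc12a9 and 3 that of Slc12a4. Without GeO2 replicate 5 none of the 3 falls of this list passed; it held 1 fall without GeO2 replicate 3, GeO2 replicate 4, control replicate 1 or control replicate 2.

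Among the named partners of Esrrb none was called lower at the probe set used. Of 14 genes listed for oestrogen-related receptors, their coactivators and corepressors, 9 were named. No oestrogen-related receptor other than Esrrb was among these, so its relatives were not examined. Esrrb was the 1 that fell, 2 rose and the remaining 6 missed the threshold; the median was −0.38. Over all named genes 29.7% were called lower and 29.6% higher. Ncoa1 and Ncoa3, nuclear receptor coactivators, rose by 0.92 (SE 0.20, adjusted p = 0.00784 in limma) and 0.76 (SE 0.13, adjusted p = 0.00304). For both, all GeO2 arrays lay above all control arrays, as for 6.55% of all probe sets tested, and no omission ended the call. The coactivator genes Ppargc1a, encoding PGC-1 alpha, and Ppargc1b, encoding PGC-1 beta, changed by −0.62 (SE 0.20, adjusted p = 0.0514) and −0.45 (SE 0.18, adjusted p = 0.104). Pprc1, a PGC-1 related gene, changed by −0.38 (adjusted p = 0.108) and the coactivator gene Ncoa2 by −0.47 (adjusted p = 0.091). The corepressor genes Nrip1 and Ncor1 changed by 0.30 (adjusted p = 0.0512) and 0.19 (adjusted p = 0.143) at their brightest probe sets, and each had a dimmer probe set called lower (−0.49 and −0.62). The count of falls ran from 0 to 2 as single arrays were left out: it was 2 without GeO2 replicate 1 or control replicate 4, 1 without GeO2 replicate 4 and 0 without any other array.

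Of 18 listed marginal cell genes, 9 were named in the authors' table of significant genes: 8 fell, none rose and 1 missed the threshold, and the median was −0.67. Leaving out Atp1b2, Slc12a2 and Esrrb, 5 of 6 fell, where 29.7% of all named genes were called lower. The list was chosen with earlier results of these data known, so these counts are a description. The count of 8 became 5 without GeO2 replicate 5 or control replicate 5. Kcne1, read between 1741 and 3238 units in controls and between 88.6 and 614.3 in GeO2, changed by −2.96 (SE 0.46), and Kcnq1 by −1.24 (SE 0.28). These were the 2 genes named of the 7 listed for strial chloride and potassium channels. Stac, an adaptor protein gene, fell from 739.9 ± 113 to 252.5 ± 58.2 units (SD, n = 5), a change of −1.51 (SE 0.20, adjusted p = 0.00083) that no omission ended. Add2, encoding beta adducin of the membrane skeleton and also on the erythroid list, changed by −0.49 (SE 0.14, adjusted p = 0.0306), its call ended by 6 of the 10 omissions, and by −1.85 at a dimmer probe set. Heyl, a Notch target, changed by −0.67 (SE 0.24, adjusted p = 0.0738). Whether the channel fell by more than the pump, the cotransporter or Esrrb was not tested.

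**Figure D4:**
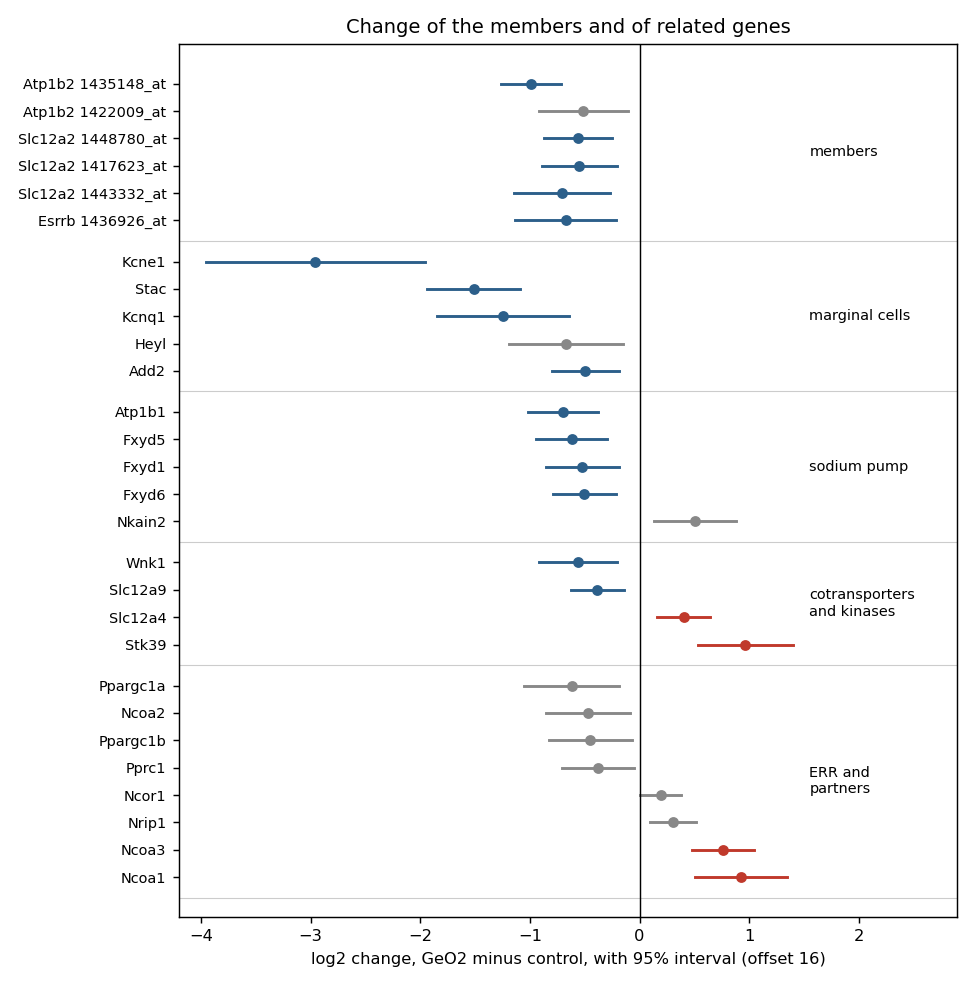
Change in log2(signal + 16), GeO2 minus control, with its 95% interval, for the 6 probe sets of the members and for the genes named here of the marginal cell, sodium pump, cotransporter and oestrogen-related receptor (ERR) lists, each gene shown once at its brightest tested probe set. Blue marks genes called lower, red genes called higher and grey genes that did not pass; Kcne1 lies farthest to the left at −2.96, and Stk39 and Ncoa1 farthest to the right at 0.96 and 0.92.

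Genes of other cochlear cell types were counted the same way, beside 29.7% of all named genes called lower and 29.6% higher. Markers of the neighbouring strial intermediate cells fell in 4 of 5 named genes of 14 listed, among them the melanocyte transcription factor gene Mitf (−0.83, SE 0.19) and Dct, a melanin enzyme gene (−0.49, SE 0.11); 2 fell without GeO2 replicate 5 or control replicate 2. Markers of spiral ligament fibrocytes, a list that shares Slc12a2 and Atp1b1 with those above, fell in 8 of 9 named of 18 listed. Among them were the water channel gene Aqp1 (−1.43, SE 0.25) and the potassium channel gene Kcnk2 (−1.03, SE 0.18). Leaving out Slc12a2, 7 of 8 fell. Neither of the 2 named of 6 strial basal cell genes passed (Nr2f2 −0.60, Gjb6 0.20), and 1 fell without GeO2 replicate 1, GeO2 replicate 3, control replicate 4 or control replicate 5. Supporting cell genes rose in 3 of 4 named of 12 listed, Sox2 by 0.91 (SE 0.17) and Fgfr3 by 0.62 (SE 0.15). The remaining rise lost its call in 7 of the 10 omissions. The 1 hair cell gene named of 13, Myo6, rose by 0.65, a call that 6 of the 10 omissions ended. Snap25, the 1 neuronal gene named of 12, changed by −0.53 (adjusted p = 0.053). It was called lower without control replicate 4, with quantile normalization, with the lowest 60% left out and with the replicate block. With no filter or with any other array left out it was not called.

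Atp1b2 is also known as an adhesion molecule of glia. Of 12 genes of nerve glia 3 were named, and Prx rose (0.75, SE 0.18). Here too the shares over all named genes were 29.7% called lower and 29.6% called higher. Mbp, a myelin gene, was called lower at one probe set (−0.73, SE 0.14) and higher at its other (0.95), so its direction was not settled. The list had 0 falls with the mean over each gene's probe sets, or without control replicate 2, 3, 4 or 5. Egr2, named after its values were seen, changed by 0.79 (adjusted p = 0.0514) and was called higher at its other probe set (0.91). Of 8 endothelial genes 2 were named, with Tek higher by 0.71 and Flt1 changing by 0.18 (adjusted p = 0.286). Of 7 bone genes 3 were named, with Alpl lower by 0.70 and Dmp1 higher by 0.80. Of the 10 omissions, 3 ended the call of Tek and 6 that of Dmp1. Of 9 genes listed for skeletal muscle, none was both named in the authors' table and tested, so that list was not analysed here. The part of these cell types in the values of Atp1b2, Slc12a2 and Esrrb was not tested.

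Markers of blood-derived cells were counted only where the authors' table, selected for a group difference on these arrays, names them. The other listed markers are unnamed here, so a difference in these cell types as a whole was not tested. Of 20 erythroid genes, 17 were named and 16 fell, among them the transcription factor genes Klf1 (−3.01, SE 0.37) and Gata1 (−2.48, SE 0.34). Over all named genes 29.7% were called lower and 29.6% higher. Their summed signal ran from 131484 to 229719 units in controls and from 45546 to 116085 in GeO2, with no member at 0. The 2 named macrophage genes of 10 rose (Clec4n 1.97, Msr1 1.51), and their sum ran from 611.3 to 866.9 units in controls and from 1156 to 6366 in GeO2. The 2 named neutrophil genes of 10 rose, Lcn2 by 3.60 and Cd177 by 1.95, with the call of Cd177 ended by 9 of the 10 omissions; their sum ran from 459.5 to 1717 units in controls and from 2932 to 25941 in GeO2.

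The erythroid genes and Atp1b2 were followed array by array, a comparison chosen after seeing the data. The mean log2 value of the 17 erythroid genes was 10.30 ± 0.97 over the GeO2 arrays, against 12.57 ± 0.50 over the controls (SD, n = 5). GeO2 replicate 2 had the highest mean of its group (11.61) and also the highest Atp1b2 at 1435148_at. Control replicate 3 had the lowest mean of its group (11.69) and the highest Atp1b2 at that probe set. Within groups, this mean gave a Pearson r of 0.55 with Atp1b2 (exact permutation p = 0.209, adjusted p = 0.626 over 9 relations, 10 arrays), a Spearman rho of 0.43 (p = 0.318) and, with the 2 extreme arrays dropped, r of −0.26. It gave r of 0.05 with Slc12a2 and 0.13 with Esrrb (exact permutation p = 0.904 and 0.786, each 0.904 when adjusted), rho of 0.09 and 0.14 (p = 0.833 and 0.762), and, with the 2 extreme arrays dropped, r of 0.31 and 0.25.

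The genes whose log2 values across the 10 arrays were most like those of each member were taken from 5115 other named genes, at 1 probe set per gene. These likenesses hold the group difference for which all named genes were selected, and they are given as a description. The r with group means removed comes from the same arrays on which the genes were picked. High values of it therefore follow in part from the picking. For Atp1b2 they were Lyrm4, an iron-sulphur cluster assembly gene (r = 0.98), Apol11b (0.98), Nbdy (0.97), the formin gene Daam1 (0.96) and Noct, nocturnin (0.96). With group means removed these gave r of 0.86, 0.91, 0.77, 0.71 and 0.76. Apol11b had by far the largest change of the 5, −3.15 (SE 0.48), against −0.52 to −0.82 for the others.

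For Slc12a2 the nearest genes were Ide, insulin degrading enzyme (r = 0.96), Jmjd6 (0.95), Nat8f1 (0.95), the glutathione transferase gene Gstk1 (0.94) and A930011G23Rik (0.94), with r of 0.85 to 0.90 once group means were removed. Their changes ran from −0.32 for Ide to −1.14 for Nat8f1. For Esrrb they were Med26, a Mediator subunit gene (r = 0.98), the Polycomb gene Cbx2 (0.96), Zfp672 (0.94), Wnk1 (0.93) and the sugar transporter gene Slc2a8 (0.93), with r of 0.86 to 0.96 once group means were removed. Of these, Wnk1 and Slc2a8 were called lower, and Med26, Cbx2 and Zfp672 did not pass (adjusted p from 0.0657 to 0.118). The 15 genes held Wnk1 of the cotransporter and kinase list and no gene of the sodium pump or marginal cell lists.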

How the data were processed

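The deposited values are linear intensities for each array and probe set, from GCOS 1.3 per the submitters' processing notes. Their scaling target is not stated in these sources. No value was at or below 0, and no pair of the 10 columns was identical. The authors' deposited table gives p-values and signed folds, a score below 0 for lower signal in GeO2. A pooled-variance test of the linear intensities returned all 7806 of these p-values to a tolerance of 1e-05.

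For the present work, log2 values of the deposited intensities plus 16 were fitted in limma 3.58.1 (R 4.3.3; lmFit, eBayes with trend, two-sided) over the 27022 of 45037 probe sets outside the dimmest 40%. The code was tested on simulated data. Probe sets outside the authors' table are unnamed here and were not used as members. Symbols were updated through RefSeq names of GRCm38.p6: 4291 of 7095 single symbols were current and 2354 matched 1 synonym. Named are all member probe sets, the tested genes of the 5 lists on pump, cotransporter, channel, receptor and marginal cells (a few are counted but not reported by name here), the 2 genes of lowest p in each other list, and the 5 nearest genes of each member. Each list gene stands at its brightest tested probe set. Members, lists and tests were chosen with earlier results of these data known. The alternatives tried were other scalings, offsets, filters, variance models, a replicate block, and each array left out.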

Additional observations from a re-analysis of the deposited data

Results flagged for a closer look

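A sample stood far from the other 4 of its group in 4 of 66 groups tested, by a gap to the nearest sample above 0.71 of the group's range; chance gives such a gap in about 1 of 20 groups. The difference in log2 signal between Atp1b2 and Esrrb was 3.34 in control replicate 2, below the 4.02 to 4.23 of the other controls, a gap of 0.758 of the range, and this is the array with the highest Esrrb. Stac was 7.40 in GeO2 replicate 4, below the 8.10 to 8.33 of the other GeO2 arrays (0.755 of the range). Add2 was 9.93 in control replicate 2, above the 9.54 to 9.65 of the other controls (0.716 of the range). Ppargc1b was 9.12 in control replicate 4, above the 8.80 to 8.85 of the other controls (0.842 of the range).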

How the results depend on the processing

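Every member probe set stayed lower in GeO2 under every alternative run. Atp1b2 at 1435148_at passed in all, with an adjusted p from 0.000557 to 0.00356 as single arrays were left out. The other adjusted p-values over the arrays left out ran from 0.0476 to 0.183 for 1422009_at, 0.011 to 0.0547 for 1448780_at, 0.0151 to 0.0838 for 1417623_at, 0.0151 to 0.0765 for 1443332_at and 0.0245 to 0.113 for Esrrb. Probe set 1422009_at passed with array weights (0.0258) and in the unadjusted exact permutation test (p = 0.0159). The pooled-variance test on linear intensities, adjusted over all 45037 probe sets, lost 1448780_at (0.0791), 1417623_at (0.126), 1443332_at (0.108) and Esrrb (0.162). A shift of each array to 1 median lost 1417623_at (0.0598), 1443332_at (0.0588) and Esrrb (0.0511). With no filter 1443332_at (0.0562) and Esrrb (0.0766) were lost, and Esrrb also without the variance trend (0.0562) and with the replicate block (0.0531). The cause was not tested, except that no filter adds probe sets to the adjustment. With the lowest 60% left out, 1422009_at was not tested.

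Over all probe sets, 4408 were called, from 2795 (without GeO2 replicate 5) to 4855 as single arrays were left out, 2816 without control replicate 1, and 4431 with the replicate block. Same-numbered arrays of the groups had correlations of deviations from −0.05 to 0.17, so the numbers were not taken to pair samples. The block changed no other member's call. Adjusted p for unequal falls ran from 0.0714 to 0.75 (Atp1b2 and Slc12a2), 0.167 to 0.75 (Atp1b2 and Esrrb) and 0.405 to 0.984 (Slc12a2 and Esrrb, where the difference of 0.11 became −0.01 without GeO2 replicate 5, adjusted p = 0.944). Within-group r ran from −0.74 to −0.20, from −0.21 to 0.00226 (the latter without GeO2 replicate 5) and from 0.18 to 0.53 for the same pairs. Falls over the arrays left out ran from 5 to 7 for the marginal cell list, 4 to 6 for the pump, 0 to 3 for the cotransporters and 0 to 2 for the receptors, and stayed at 2 for the channels. With no filter the cotransporter list had 1 fall and the receptor list 0; the receptor list had 0 with the mean over probe sets, 0 with the replicate block and 2 with the lowest 60% left out.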

Other observations

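The channel genes were set beside the members within groups, over 10 arrays and 9 relations chosen after seeing the data. Esrrb gave a Pearson r of 0.70 with Kcnq1 (exact permutation p = 0.0287, adjusted p = 0.258) and a Spearman rho of 0.50 (p = 0.141), and r was 0.18 without the 2 arrays farthest from the median Kcnq1 deviation, so the relation rests on those arrays. Esrrb gave r of 0.62 with Kcne1 (exact permutation p = 0.0589, adjusted p = 0.265), rho of 0.58 (p = 0.0756) and, with the 2 extreme arrays dropped, r of 0.79. Neither relation passed after adjustment. Atp1b2 gave r of 0.08 with Kcne1 and −0.20 with Kcnq1, and Slc12a2 gave −0.13 and 0.31, with exact permutation p from 0.491 to 0.849.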
